A study of Mus musculus with 3 samples.

Results

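The genes of the lysosome, the cathepsins and autophagy were followed here as 38 named genes among the 55357 genes counted in sorted mouse lung cells. They were listed by name, with earlier results of these data already known. The list holds 10 cathepsin and legumain genes, 4 lysosomal membrane glycoproteins, 4 hydrolases or hydrolase activators and a calcium channel with 2 transcription factors. It also holds 6 V-ATPase subunits, 5 members of the ATG8 family and 6 genes of the autophagy machinery. Wild-type C57BL/6 mice received 50 µL into the trachea of phosphate-buffered saline (PBS), of lipopolysaccharide (LPS, a bacterial cell wall component that injures the lung) at 4 mg/kg, or of LPS at 4 mg/kg together with 6 µg of the secreted lectin Reg3g. After 24 h, living leukocytes (DAPI-, CD45+) were sorted that carried F4/80 with CD11b or CD11c and lacked Ly6G, a neutrophil marker. Every group is a single droplet library in which 3 mice were combined; no difference below has a replicate check and none carries a p-value.

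Macrophages take up particles, surfactant and dying cells and break them down in lysosomes, acidic compartments filled with hydrolases. The V-ATPase pumps protons into the lysosome, cathepsins cut proteins there, and autophagy delivers the cell's own material in vesicles marked by ATG8 proteins. The transcription factors TFEB and TFE3 bind a palindromic element, known as the CLEAR element, near many lysosomal genes.

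The core of that element, TCACGTGA, was searched in the RefSeq promoter windows of build GRCm38.p6, which run 300 bases with 250 of them before the transcription start. The motif reads the same on both strands and contains the shorter E-box CACGTG. Windows were matched for 31 of the 38 genes. The core was in a window of 5 of the 31 (16.1%), namely Ctsd, Ctsa, Mcoln1, Atp6v1a and Atp6v0d1, and in 304 of 27025 genes overall (1.12%). The E-box was in 10 of the 31 (32.3%) and in 8.09% of all genes. The stretches around 4 of these matches are shown, with the core in capitals. They are the 4 whose core lies wholly before the transcription start, while that of Atp6v0d1 begins 4 bases before it.
Ctsd (cathepsin D), minus strand, chr7:142387893-142387952: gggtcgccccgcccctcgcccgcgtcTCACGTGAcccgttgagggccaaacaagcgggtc
Ctsa (cathepsin A), plus strand, chr2:164833734-164833772: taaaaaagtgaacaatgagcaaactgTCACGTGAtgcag
Mcoln1 (lysosomal calcium channel), plus strand, chr8:3500447-3500506: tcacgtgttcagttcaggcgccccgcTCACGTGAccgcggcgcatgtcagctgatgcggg
Atp6v1a (V-ATPase catalytic subunit), minus strand, chr16:44139358-44139417: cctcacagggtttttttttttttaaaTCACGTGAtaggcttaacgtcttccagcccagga
A match is a description of the letters and not a bound site.

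The libraries held 8475 (PBS), 15015 (LPS) and 10213 (LPS + Reg3g) cell barcodes, of which 7861, 13013 and 9279 were kept, with median depths of 5927, 4217 and 5453 UMIs (unique molecules counted) per cell. Pairs of libraries shared 28 to 37 barcodes, at most 0.437% of the smaller library. The 38 genes made up 1.76%, 1.86% and 1.90% of the kept UMIs. Cells were clustered without these genes and named from marker lists, as "-like" classes. Alveolar-macrophage-like cells numbered 3601, 5046 and 4105 and monocyte-like cells 2247, 6099 and 4219 in the PBS, LPS and LPS + Reg3g libraries. All 14 alveolar macrophage markers were highest in the first of these classes, against monocyte-like, interstitial-macrophage-like and lymphoid-like cells, in all 3 libraries. Their summed level there was 17189, 12373 and 12345 CPM (UMIs scaled to 1000000 per class and library). In the same comparison, 8, 8 and 7 of 9 classical monocyte markers were highest in monocyte-like cells of the PBS, LPS and LPS + Reg3g libraries. All 9 nonclassical monocyte markers were highest there in each library. Of 12 interstitial macrophage markers, 11 were highest in interstitial-macrophage-like cells in each library. Most alveolar-macrophage-like cells of the PBS library (3444) were in cluster 5, led by Fabp1 and Ear1, while those of the LPS libraries were in clusters 12, 19 and 20. Monocyte-like cells also came from different clusters, 1 and 6 in the PBS library and 3, 13, 14 and 18 in the others. Cluster 13, led by Arg1 and Saa3, held 6, 1724 and 975 cells in the PBS, LPS and LPS + Reg3g libraries. Clusters 6 and 18 scored highest for nonclassical monocyte markers. Cluster 6 held 609, 8 and 14 cells and cluster 18 held 4, 642 and 861. The part of this mix in the LPS to PBS ratios of monocyte-like cells was not tested. A further cluster with alveolar macrophage genes was kept out of the class for its high doublet scores and held 0, 207 and 188 cells.

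In alveolar-macrophage-like cells, LPS treatment went with a split within the cathepsins. Levels of Ctsz, Ctsk and Ctsb were higher and those of Ctsh, Ctsc and Ctsd lower in the LPS than in the PBS library. The tetraspanin Cd63 and the proton-channel subunit Atp6v0c were higher too. Of the 38 genes, 37 reached 10 CPM in either library, the minimum for being counted as measured; Ulk1, the kinase that starts autophagy, did not, at 9.84 and 8.34 CPM. At least 2-fold higher were 4 of the 37, Cd63, Ctsz, Atp6v0c and Ctsk, where 5.72% of the 7839 genes measured were. At least 2-fold lower were 3 of the 37, Ctsh, Ctsc and Map1lc3a, where 13.9% of the genes measured were. The median log2 ratio of the 37 was -0.12, beside -0.25 over all genes measured. That shift over all genes depends on the scaling: with a median-of-ratios scaling the all-gene median was 0.10, 9.61% of genes passed 2-fold upward and 7.94% downward, and the median of the 37 was 0.21. Under that scaling none of the 3 lower genes passed 2-fold, and 8 of the 37 changed sign: Lamp2, Psap, Tfe3, Atp6v0d1, Atp6v1b2, Map1lc3b, Gabarapl2 and Atg5. Over the other ways of processing that were run, up to 6 genes were at least 2-fold higher. The log2 ratios of Ctsb and Cd68, short of 2-fold as scaled here, reached up to 1.26 and 1.14 there. Intervals given below are 95% intervals of the counts in each pair of libraries and cover counting error only.

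**Figure D1:**
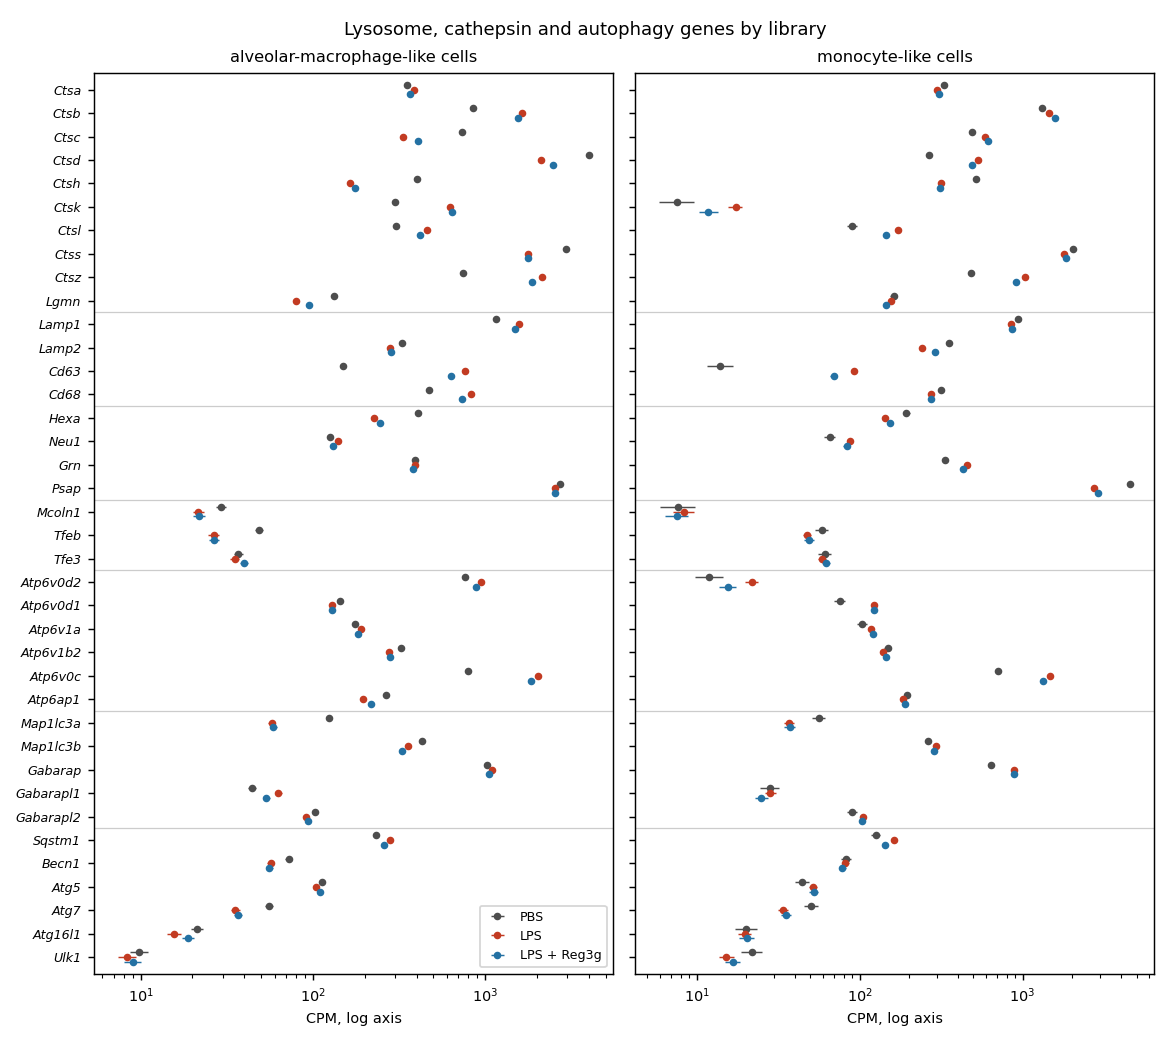
Level of each gene (CPM, log axis) in alveolar-macrophage-like cells (left) and monocyte-like cells (right), with 1 point per library and bars for the exact 95% Poisson interval; grey lines part the role groups. Cd63, Ctsz and Atp6v0c sit to the right of the PBS point in both LPS libraries and both classes, and Ctsd is to the left in alveolar-macrophage-like cells alone.

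Among the proteases, Ctsz, a cathepsin that trims single residues from protein ends, was at 743 CPM in the PBS, 2149 CPM in the LPS and 1864 CPM in the LPS + Reg3g library. Its log2 ratio of LPS to PBS was 1.53 (1.51 to 1.55). Ctsk, the collagen-cutting cathepsin of osteoclasts, was at 299, 626 and 638 CPM, a log2 ratio of 1.07 (1.03 to 1.11). Both LPS libraries lay above the PBS library for these 2 genes. Ctsb, a broad cysteine protease, stayed short of 2-fold as scaled here at 856, 1631 and 1549 CPM (log2 ratio 0.93), as did Ctsl at 304, 459 and 419 CPM (0.59). In the other direction, Ctsh, an aminopeptidase that also processes surfactant proteins, was at 403, 165 and 174 CPM, a log2 ratio of -1.29 (-1.33 to -1.24). Ctsc, which activates the serine proteases of granulocytes and lymphocytes, was at 734, 332 and 408 CPM, a log2 ratio of -1.14 (-1.18 to -1.11). Here the PBS library was the highest of the 3. Ctsd, the main aspartic protease of the lysosome, was at 4018, 2118 and 2460 CPM (log2 ratio -0.92), Ctss, which cuts the invariant chain in antigen presentation, at 2931, 1783 and 1783 CPM (-0.72), and Lgmn, the asparaginyl protease that matures cathepsins, at 132, 80.2 and 94.6 CPM (-0.72). Ctsa, the serine carboxypeptidase that protects neuraminidase, was close between libraries at 353, 387 and 364 CPM; reads of the overlapping Pltp and Neurl2 genes on the other strand came to 12764 UMIs beside its 58998.

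Of the 4 membrane glycoproteins, 3 were higher in the LPS library. Cd63, a tetraspanin of lysosomes and exosomes, was at 151 CPM in the PBS, 761 CPM in the LPS and 631 CPM in the LPS + Reg3g library, with the largest log2 ratio of the 38 genes for LPS against PBS, 2.34 (2.29 to 2.38). A processed copy, Cd63-ps, took 187 UMIs beside 68082. Cd68, the macrophage scavenger glycoprotein, was at 473, 830 and 736 CPM (0.81), and Lamp1, a main coat protein of the lysosomal membrane, at 1150, 1568 and 1490 CPM (0.45). Lamp2, a form of which acts in chaperone-mediated autophagy, was at 331, 282 and 284 CPM (-0.23).

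None of the hydrolases and activators passed 2-fold. Hexa, which breaks down gangliosides, was lowest in the LPS library at 406, 225 and 245 CPM (log2 ratio -0.85). Psap, the precursor of the saposins that help lipid hydrolases, was at 2726, 2555 and 2541 CPM, and Grn, the precursor of the granulins, at 392, 393 and 380 CPM. Neu1, which removes sialic acid, was at 126, 139 and 131 CPM. The regulators were low throughout: Tfeb at 48.5, 26.5 and 26.7 CPM (-0.87), Mcoln1 at 29.4, 21.7 and 21.8 CPM (-0.44) and Tfe3 at 36.9, 35.1 and 39.9 CPM (-0.07, with an interval that held 0).

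The V-ATPase subunits did not move together. Atp6v0c, the proteolipid that forms the rotating ring in the membrane, was at 790, 2018 and 1852 CPM, a log2 ratio of 1.35 (1.33 to 1.37). Atp6v0d2, the subunit that osteoclasts and alveolar macrophages use, was at 759, 950 and 879 CPM (0.32), while its widely used counterpart Atp6v0d1 was at 144, 130 and 129 CPM (-0.15). The others lay between -0.43 (Atp6ap1) and 0.12 (Atp6v1a), with Atp6v1b2 at -0.23. In the ATG8 family, which tags autophagosomes, Map1lc3a was at 124, 57.7 and 58.9 CPM, a log2 ratio of -1.10 (-1.19 to -1.02). Gabarapl1 was higher at 44.5, 63.1 and 53.7 CPM (0.51), and Map1lc3b, Gabarap and Gabarapl2 lay between -0.27 and 0.10. Of the autophagy machinery, Atg7, the enzyme that activates ATG8 proteins, was at 55.6, 35.5 and 36.7 CPM (-0.65). Atg16l1 (-0.45), Becn1 (-0.34) and Atg5 (-0.12) were also lower, and the cargo receptor Sqstm1 was at 232, 279 and 260 CPM (0.27).

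**Figure D2:**
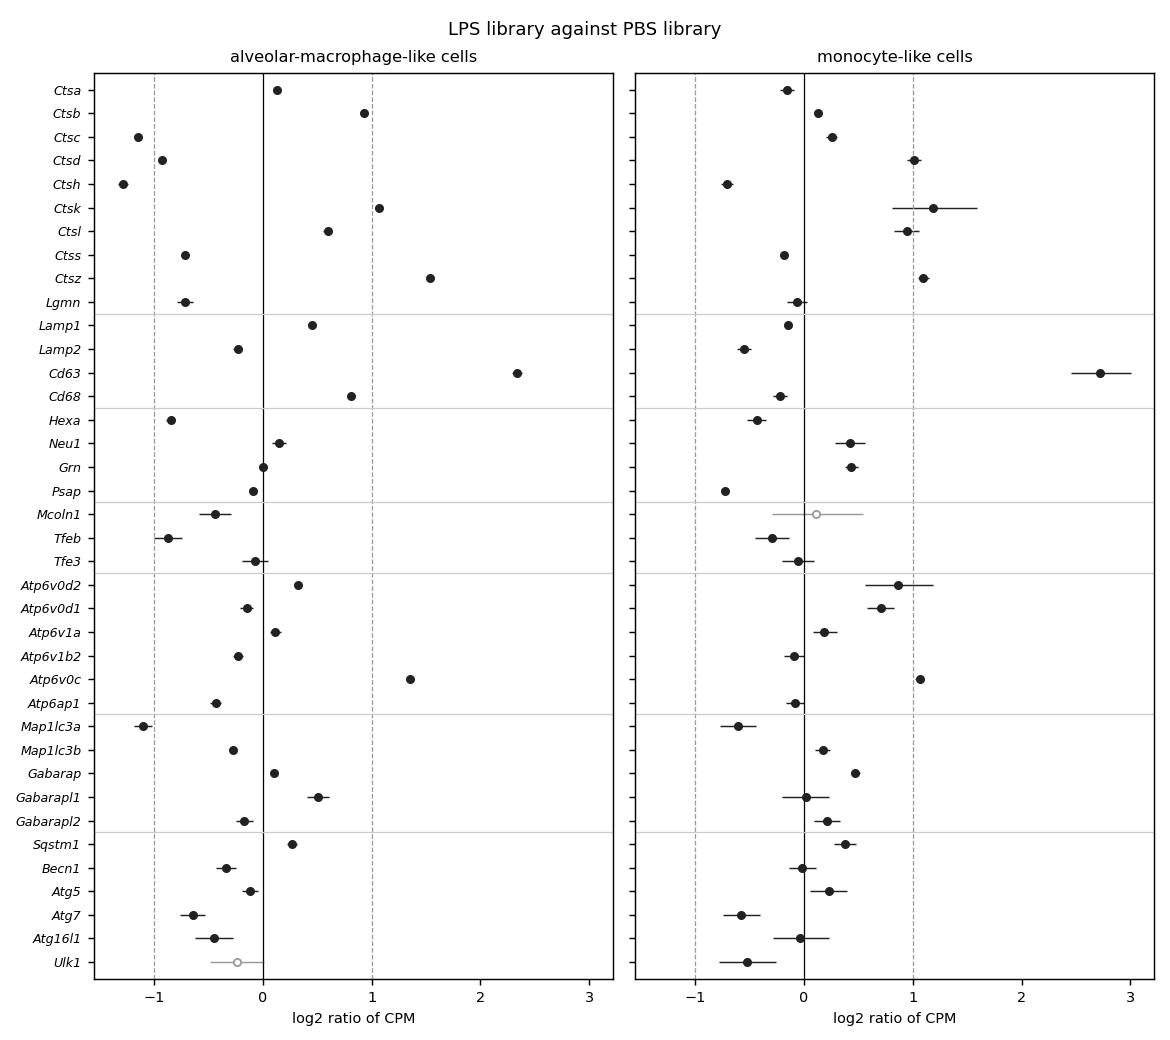
Log2 ratio of the LPS to the PBS library for each gene in alveolar-macrophage-like cells (left) and monocyte-like cells (right); bars are 95% counting intervals, dashed lines mark 2-fold, and open points are genes under 10 CPM in both libraries. Cd63 is at 2.34 and 2.72, and Ctsd lies on opposite sides, at -0.92 and 1.01.

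The lower level of Ctsd and the higher level of Ctsz were not even across the alveolar-macrophage-like clusters. In the LPS library, Ctsd was at 1923 and 1726 CPM in clusters 12 and 20 but at 3353 CPM in cluster 19. Ctsz was at 2273 and 2334 CPM in clusters 12 and 20 and at 1527 CPM in cluster 19. Cd63 was likewise lowest in cluster 19 of the 3, with 829, 811 and 512 CPM in clusters 12, 20 and 19. The 71 cells of the LPS library that fell in cluster 5, where most PBS cells were, had 5583 CPM of Ctsd, 882 CPM of Ctsz and 392 CPM of Cd63. PBS cells of that cluster had 4101, 752 and 156 CPM of the same genes. Cd63 was higher and Ctsd was not lower in the LPS library within cluster 5, a cluster drawn without these genes but from the same cells.

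**Figure D3:**
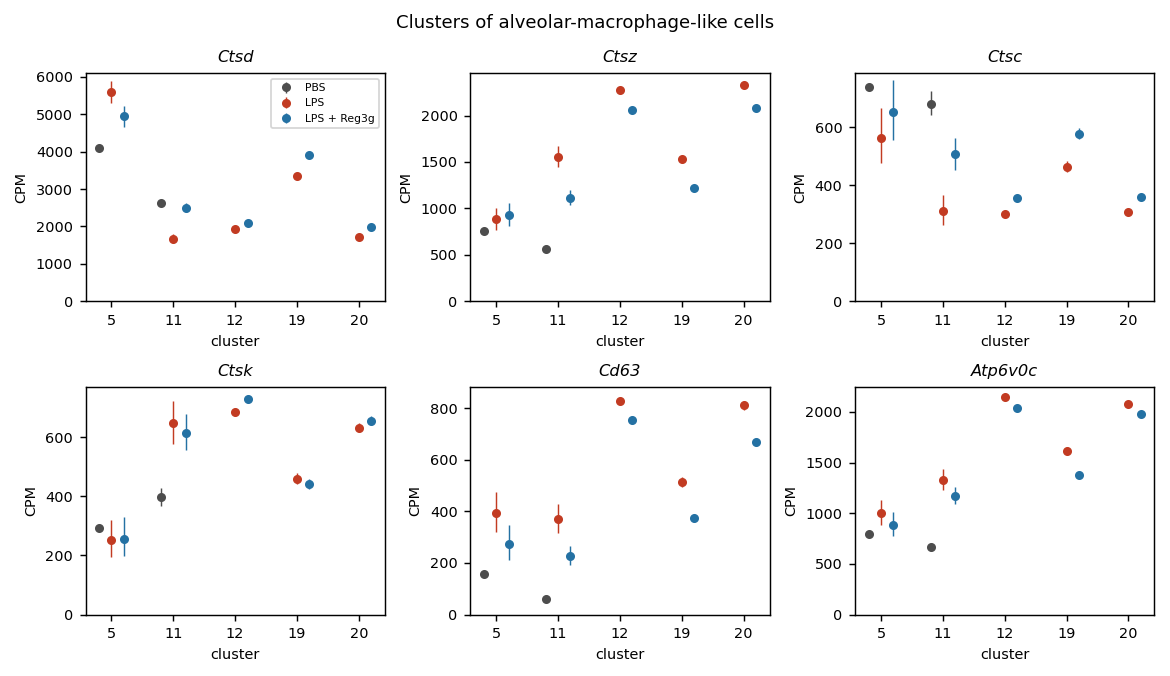
Level (CPM, axis from 0) of 6 genes in each cluster of alveolar-macrophage-like cells with at least 50 cells in a library; colours are libraries and bars exact 95% Poisson intervals. In the LPS library, Ctsd is at 3353 CPM in cluster 19 and at 1923 and 1726 CPM in clusters 12 and 20, and Ctsz and Cd63 are lower in cluster 19 than in the other two.

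Other genes of the same pathways, from lists put together for the tissue, were read beside the 38. Of 29 measured of 33 other hydrolases and proteases, 2 were at least 2-fold higher and 6 lower in the LPS library; the shares over all genes, 5.72% higher and 13.9% lower, stand beside the counts of each list here. Acp5, the tartrate-resistant phosphatase of osteoclasts, was at 141 CPM in the PBS and 983 CPM in the LPS library (log2 ratio 2.80), and Acp2, the lysosomal acid phosphatase, at 55.4 and 141 CPM (1.35). Ppt1, which removes palmitate from proteins, was at 177 and 50.9 CPM (-1.80), and Man2b1, a mannosidase, at 155 and 69.1 CPM (-1.16). Among 17 measured of 20 membrane and transport proteins, 3 were higher and 2 lower. Higher was the chloride-proton exchanger Clcn7 at 28.9 and 116 CPM (2.01), and lower were the ganglioside activator Gm2a at 266 and 81.1 CPM (-1.71) and Laptm5 at 2002 and 913 CPM (-1.13). Named after their values were seen, since they fall below 50 CPM, the other 2 higher genes were the calcium channel Tpcn2 at 8.04 and 37.9 CPM (2.24) and the metal transporter Slc11a1 at 0.811 and 10.3 CPM (3.67). Scarb2, the receptor that carries glucocerebrosidase, was at 221 and 131 CPM (-0.76). Only 2 of 8 cystatins, the inhibitors of cysteine cathepsins, were measured: Cstb at 504 and 1562 CPM (1.63) and Cst3 at 746 and 519 CPM (-0.52).

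All 12 other V-ATPase subunits were measured, with a median log2 ratio of 0.39; 1 was at least 2-fold higher, Atp6v1e1 at 436 and 883 CPM (1.02). Tcirg1 (0.68), Atp6v1f (0.54) and Atp6v0b (0.52) came next. Of 12 genes that sort proteins to the lysosome, 1 was at least 2-fold higher, the mannose-phosphate receptor Igf2r, also named after its values were seen, at 0.423 CPM (12 UMIs) and 28.8 CPM (898 UMIs). Among those of 50 CPM or more were Gnptab, which makes the mannose-phosphate tag (0.78), Sort1 (-0.69), Vps41 (-0.34) and M6pr (-0.23). Among 25 measured of 30 other autophagy genes, 1 was higher and 2 lower, the latter Atg4c (-1.36) and Ulk2 (-1.01), named after their values were seen. Wipi1, which binds the lipid of forming autophagosomes, was at 9.21 and 59.4 CPM (2.69), and Atg101 (-0.37), Tax1bp1 (0.37) and Atg3 (-0.23) were next among genes of 50 CPM or more. None of 16 measured of 17 genes of mTORC1 signalling at the lysosome and of the TFEB family passed 2-fold; Flcn, at 25.7 CPM in the PBS library and named after its values were seen, had the lowest ratio (-0.99), and among genes of 50 CPM or more Fnip2 (0.67), Lamtor1 (0.59), Mitf (0.57) and Lamtor3 (0.45) differed most. With median-of-ratios scaling, the counts at least 2-fold higher and lower became 3 and 3 for the hydrolases (Man2b1 no longer among the lower), 3 and 1 for the membrane proteins (without Laptm5) and 3 and 1 for the autophagy genes (without Ulk2). They became 2 and 0 for the V-ATPase subunits, 3 and 0 for the sorting genes and 1 and 0 for the mTORC1 list. Under that scaling, 9.61% of all genes measured were at least 2-fold higher and 7.94% at least 2-fold lower.

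In monocyte-like cells, Ctsz and Atp6v0c were again higher in the LPS library. Cd63, Ctsd and Ctsk were higher too, at levels near those of lymphoid-like cells of the same libraries in at least 1 library. Of 37 measured genes, 5 were at least 2-fold higher, where 10.6% of the 7663 genes measured were, and 0 were at least 2-fold lower, where 8.42% were. The median was 0.01, beside 0.02 for all genes. Ctsz was at 485, 1038 and 915 CPM in the PBS, LPS and LPS + Reg3g libraries (log2 ratio 1.10, 1.05 to 1.14), and Atp6v0c at 704, 1471 and 1328 CPM (1.06, 1.02 to 1.10). Both were above the 127 to 231 CPM of Ctsz and the 210 to 436 CPM of Atp6v0c in lymphoid-like cells, which served as a gauge of RNA from other cells. The 3 remaining genes were closer to that gauge. Ctsd was at 267, 536 and 489 CPM (1.01), beside 264, 391 and 309 CPM in lymphoid-like cells; over those cells its log2 ratio was 0.01 (-0.30 to 0.35) in the PBS and 0.45 (0.15 to 0.77) in the LPS library. Cd63 was at 13.9, 92.0 and 69.3 CPM (2.72), beside 6.37, 62.3 and 41.9 CPM, and Ctsk at 7.60, 17.3 and 11.8 CPM (1.19), beside 12.7, 8.90 and 15.7 CPM. Lymphoid-like cells held 314055, 224845 and 191062 UMIs over all genes in the PBS, LPS and LPS + Reg3g libraries. Their Cd63 and Ctsk levels therefore rest on few UMIs and are loose gauges. The part of free RNA in these 3 ratios was not tested. With each cell thinned to 1000 UMIs, 6.85% of monocyte-like and 7.20% of lymphoid-like cells of the LPS library had a Cd63 UMI. The lymphoid-like share rests on 125 cells, too few to decide whether Cd63 in monocyte-like cells lies above it. Unthinned, 18.3% of these monocyte-like cells had a Cd63 UMI. Median depths of the 2 classes in that library were 3215 and 1376 UMIs.

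The lower side in monocyte-like cells was led by Psap at 4567, 2759 and 2891 CPM (log2 ratio -0.73) and Ctsh at 515, 315 and 313 CPM (-0.71). Map1lc3a (-0.61), Atg7 (-0.58), Lamp2 (-0.55) and Ulk1 (-0.52) were lower by smaller amounts. Ctsl (0.94) and Atp6v0d1 (0.70) were higher but short of 2-fold. Of the pathway lists in monocyte-like cells, 3 of 26 measured hydrolases and proteases were at least 2-fold higher and 3 lower. The counts were 1 and 1 of 17 membrane proteins and 2 and 1 of 12 sorting genes. Both the 2 cystatins and the 16 mTORC1 genes had 1 and 0, and the V-ATPase and autophagy lists 0 and 0. Over all genes measured, 10.6% were higher and 8.42% lower. Among the higher, Acp5 was at 20.4 CPM in the PBS and 177 CPM in the LPS library (log2 ratio 3.12), Acp2 at 22.1 and 141 CPM (2.67) and Cstb at 174 and 519 CPM (1.57), the same direction as in alveolar-macrophage-like cells. Lymphoid-like levels of the list genes were not read. Tfec, a factor of the TFEB family, had a log2 ratio of 2.00 in monocyte-like cells, from 5.73 CPM in the PBS library, and of -0.36 in alveolar-macrophage-like cells. For 9 of the 36 genes measured in both classes, the ratios had opposite signs with intervals that excluded 0 in each: Ctsa, Ctsc, Ctsd, Lamp1, Cd68, Atp6v0d1, Map1lc3b, Gabarapl2 and Atg5. For 19 they had the same sign with both intervals excluding 0. These counts were not made over all genes. Of all genes measured, 64.9% were below 0 in alveolar-macrophage-like and 48.6% in monocyte-like cells.

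Several of the 38 genes differed between classes. Ctsk was at 299, 626 and 638 CPM in alveolar-macrophage-like cells and at most 48.4 CPM in the next class, interstitial-macrophage-like cells. Atp6v0d2, at 759 to 950 CPM there, was at 50.1, 52.7 and 73.5 CPM in interstitial-macrophage-like and 11.9 to 21.8 CPM in monocyte-like cells, the last no higher than in lymphoid-like cells (15.9 to 26.2 CPM). Ctsd was also highest in alveolar-macrophage-like cells in all 3 libraries. Lgmn was highest in interstitial-macrophage-like cells, at 618, 836 and 853 CPM, against 162, 155 and 163 CPM in the next class. Ctsb was highest there too, at 1492, 2944 and 2954 CPM. Ctsh was highest in migratory-dendritic-like cells at 738, 784 and 764 CPM, where the LPS value did not differ beyond counting error from the 722 CPM of interstitial-macrophage-like cells. Cd63 was at 971, 1149 and 1207 CPM in migratory-dendritic-like and 586, 1597 and 1571 CPM in interstitial-macrophage-like cells. Atg16l1, which helps attach ATG8 proteins to membranes, was at 57.3, 31.1 and 31.4 CPM in lymphoid-like cells, above the next class beyond counting error in the PBS library but not in the LPS (7 UMIs) or LPS + Reg3g library (6 UMIs).

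**Figure D4:**
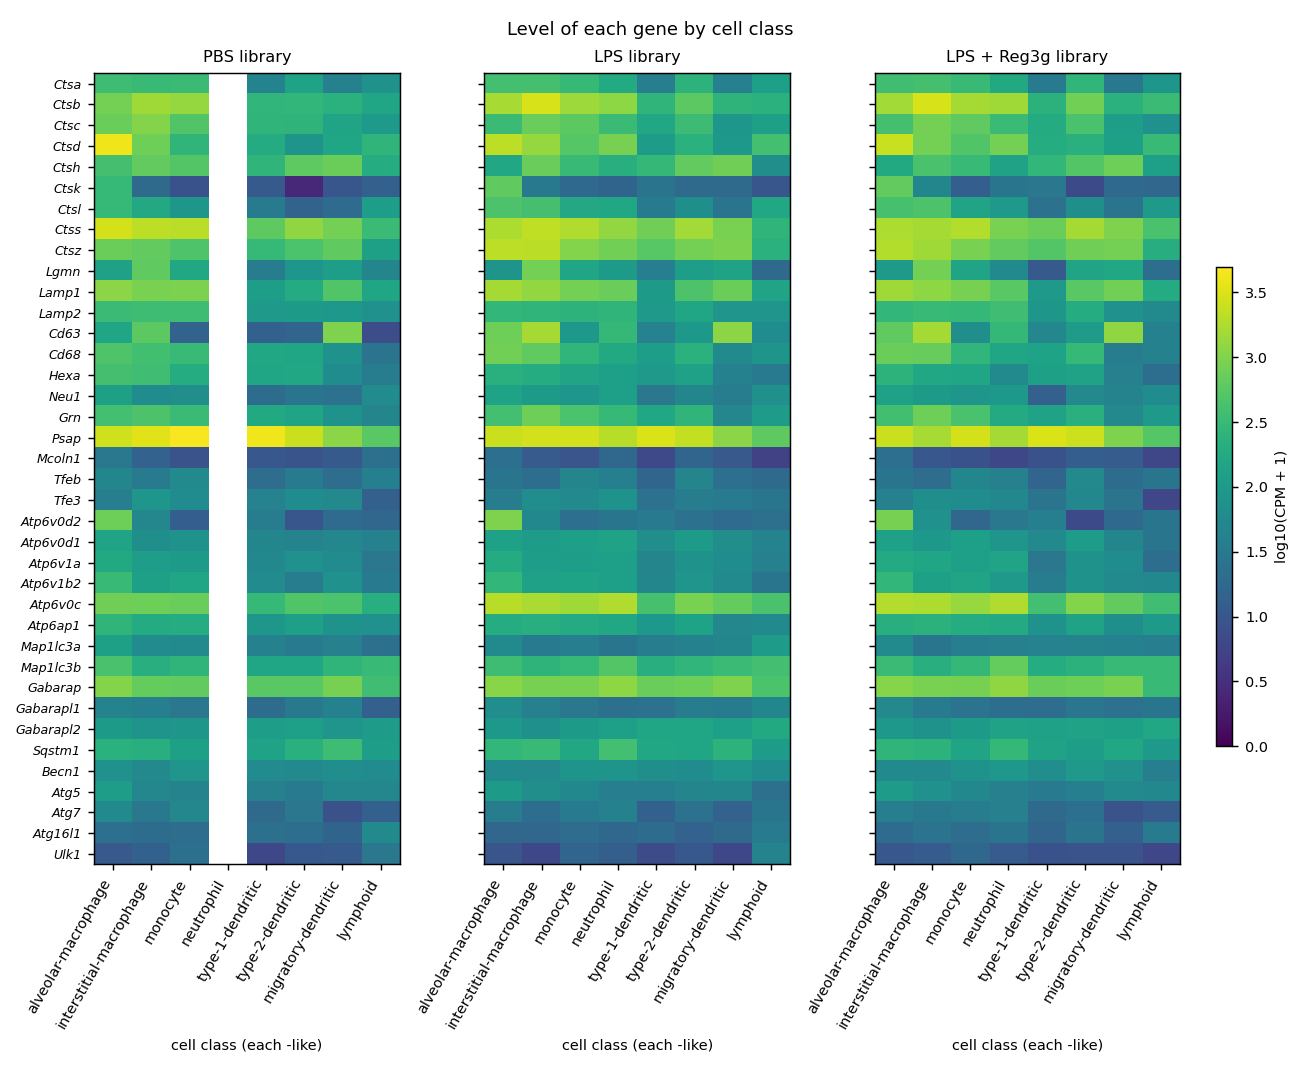
Level of each gene as log10(CPM + 1) by cell class (columns) in each library (panels); white marks a class with under 50 cells. Ctsk and Atp6v0d2 are bright in the alveolar-macrophage column alone, Lgmn is brightest in the interstitial-macrophage column, and Cd63 is bright in the migratory-dendritic and interstitial-macrophage columns and, in the LPS libraries, in the alveolar-macrophage column.

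Interstitial-macrophage-like cells numbered 552, 155 and 124. Ctsz was at 645 CPM in the PBS, 2087 CPM in the LPS and 1482 CPM in the LPS + Reg3g library, a log2 ratio of LPS to PBS of 1.69 (1.59 to 1.80). Ctsl was at 168, 406 and 459 CPM (1.27), and Atp6v0c at 767, 1721 and 1777 CPM (1.17, 1.05 to 1.28). Cd63 was at 586, 1597 and 1571 CPM (1.44). The lowest ratio was that of Ulk1 (-1.32), on 35 and 3 UMIs, with an interval that held 0. The summed level of 10 neutrophil markers in these cells was 99.5 CPM in the PBS and 404 CPM in the LPS library, and its part in these ratios was not tested.

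Set against lymphoid-like cells of the PBS library, the median log2 ratio of the 38 genes was 2.02 in alveolar-macrophage-like, 1.62 in interstitial-macrophage-like, 1.37 in monocyte-like, 0.69 in type-2-dendritic-like, 0.58 in migratory-dendritic-like and 0.45 in type-1-dendritic-like cells. In type-2-dendritic-like cells (330, 327 and 99 cells), Ctsb was at 284 CPM in the PBS, 588 CPM in the LPS and 809 CPM in the LPS + Reg3g library, and Lamp1 at 190, 459 and 563 CPM. Both LPS libraries lay above the PBS library for these genes. Of 37 measured genes in type-2-dendritic-like cells, 31 were above 0 for LPS against PBS and 6 below, with a median log2 ratio of 0.52. At least 2-fold higher were 9 and at least 2-fold lower 0. The shares over all genes were not counted in this class. In type-1-dendritic-like cells (740, 279 and 65 cells), Ctsz was at 302, 545 and 514 CPM and Psap at 4195, 3128 and 3097 CPM. Neutrophil-like cells, 105 with LPS and 119 with LPS + Reg3g, carried Atp6v0c at 1833 and 1819 CPM and Map1lc3b at 510 and 661 CPM; the 2 such cells of the PBS library were not read.

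Adding Reg3g to LPS went with small differences in these genes. In alveolar-macrophage-like cells, 0 of 37 measured genes were at least 2-fold higher in the LPS + Reg3g than in the LPS library, where 0.0419% of the 7164 genes measured were, and 0 were at least 2-fold lower, where 0.0698% were. The log2 ratios ran from -0.27 (Cd63) to 0.30 (Ctsc), with a median of -0.01 beside 0.03 for all genes. Ctsc, at 332 CPM with LPS and 408 CPM with LPS + Reg3g, had an interval of 0.26 to 0.34. Ctsd, at 2118 and 2460 CPM, had a ratio of 0.22 (0.20 to 0.23), Lgmn 0.24 (0.16 to 0.32) and Atg16l1 0.27 (0.10 to 0.45). On the other side, Cd63 was at 761 and 631 CPM (-0.27, -0.30 to -0.24), Gabarapl1 at 63.1 and 53.7 CPM (-0.23) and Ctsz at 2149 and 1864 CPM (-0.21, -0.22 to -0.19). With median-of-ratios scaling 10 of the 37 were above 0 and 27 below, against 17 and 20 as scaled here. Of all genes measured, 59.3% were above 0 and 40.7% below as scaled here. These shares were not counted under median-of-ratios scaling, so they are no measure for the counts made with it. The median-of-ratios medians were -0.05 for the 37 and -0.01 for all genes. Intervals were above 0 for 9 of the 37 and below 0 for 15, a count not made over all genes. With 1 library a group, how far 2 libraries of the same treatment would differ is not known. In cluster 19 alone, Ctsd was at 3353 CPM with LPS and 3920 CPM with LPS + Reg3g, and Ctsz at 1527 and 1222 CPM; cluster 19 held 963 of 5046 and 1029 of 4105 cells of the class. Of the pathway lists, no gene passed 2-fold; the named ones were Tfec (0.39), Vps35 (0.23), Gm2a (0.20), Cst3 (-0.06), Atp6v1e1 (-0.19), Wipi1 (-0.30) and Naglu (-0.36).

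**Figure D5:**
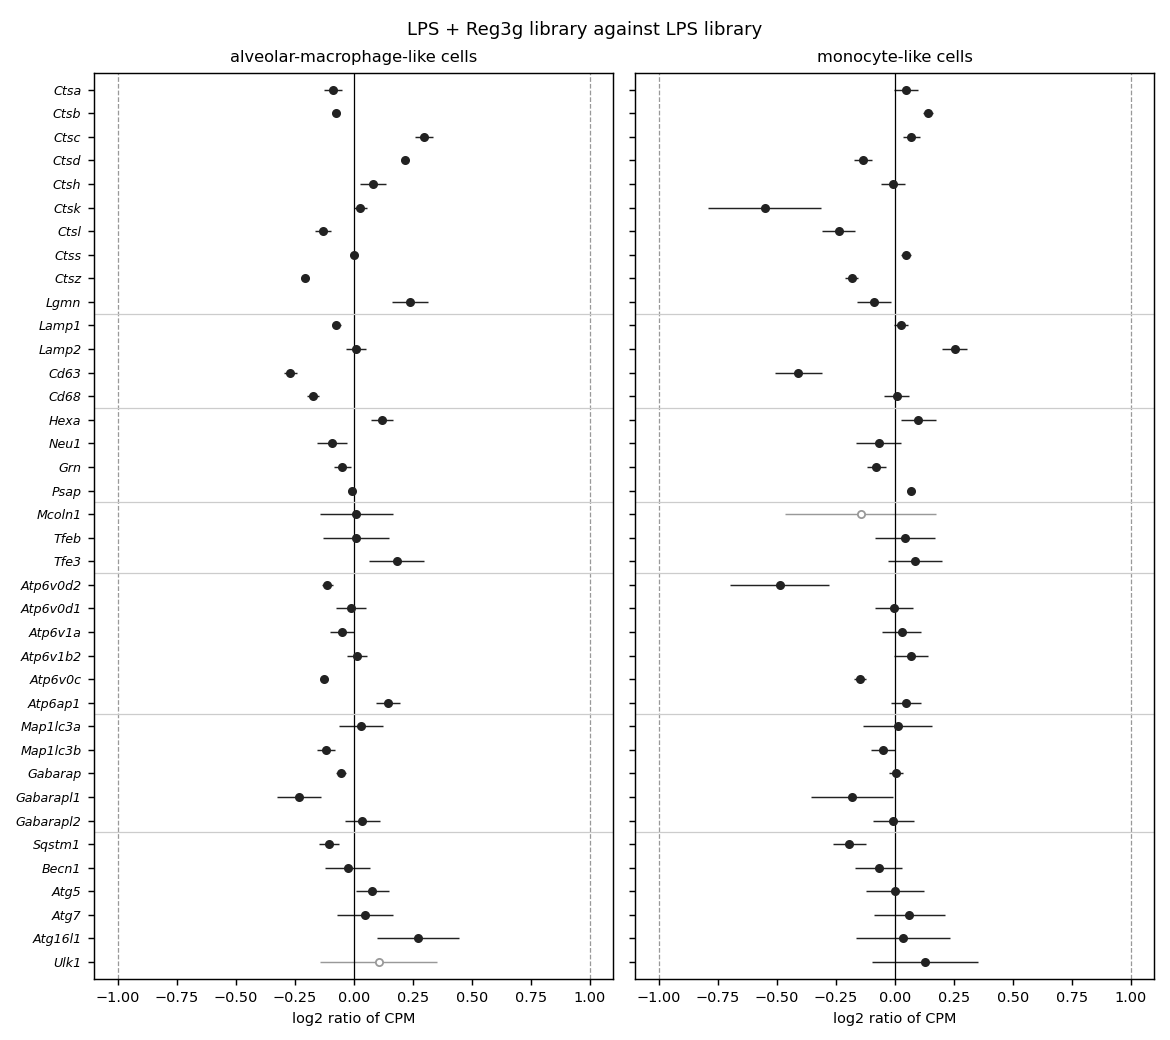
Log2 ratio of the LPS + Reg3g to the LPS library for each gene, drawn as in the plot of LPS against PBS. No gene reaches a dashed 2-fold line in either class; in alveolar-macrophage-like cells the values run from -0.27 (Cd63) to 0.30 (Ctsc).

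In monocyte-like cells, 0 of 37 were at least 2-fold higher (0.122% of 7387 genes measured) and 0 at least 2-fold lower (0.0541%). The range was -0.55 (Ctsk, at the level of lymphoid-like cells) to 0.25 (Lamp2, 242 and 289 CPM). Cd63 was at 92.0 and 69.3 CPM (-0.41), Ctsz at 1038 and 915 CPM (-0.18) and Ctsb at 1444 and 1591 CPM (0.14). Between these libraries the summed neutrophil markers in monocyte-like cells were at 739 and 1265 CPM, and cluster 18, led by Ace and S1pr5, held 642 of 6099 and 861 of 4219 cells; the part of either in these ratios was not tested. With median-of-ratios scaling 7 of the 37 were above 0 and 30 below, against 20 and 17 as scaled here. Of all genes measured in monocyte-like cells, 58.3% were above 0 and 41.7% below as scaled here. Shares over all genes under median-of-ratios scaling were not counted in this class either. The median-of-ratios medians were -0.06 for the 37 and -0.03 for all genes. In interstitial-macrophage-like cells the largest differences with intervals excluding 0 were Psap at 2824 and 1618 CPM (-0.80, -0.92 to -0.69), Ctsh at 722 and 430 CPM (-0.75) and Ctsd at 1282 and 846 CPM (-0.60), in 155 and 124 cells. The summed level of 10 neutrophil markers in those cells was 404 CPM with LPS and 1446 CPM with LPS + Reg3g, and its part in these ratios was not tested.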

How the data were processed

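The deposited files hold whole-number UMI counts per gene and cell barcode for 3 libraries, which per the file headers were made with Cell Ranger 9.0.1. The submitters' processing notes also name bcl2fastq 5.0.1, Seurat 4.4.0 and build mm10; no source used here names the annotation. The filter on barcodes was 500 or more genes, 1000 or more UMIs and a mitochondrial share of up to 15%, less the highest Scrublet scores at 0.4% of barcodes per 1000 barcodes. Cells were clustered in scanpy 1.11.5 (2000 variable genes without the 38 genes and the 7 pathway lists, 30 components, 15 neighbours, Leiden resolution 1), giving 21 clusters. Names came from marker lists; the scoring rule, the merging of lymphoid classes and the doublet-score limit of 0.1 were set after seeing the clusters, and 2 clusters stayed unnamed. Each gene's UMIs in a class of a library were scaled to 1000000 UMIs of that class (CPM). With 1 library per group there is no test: Poisson, Clopper-Pearson and conditional binomial 95% intervals cover counting error only. A gene counted as measured at 10 CPM in 1 of the 2 libraries compared. The ratio step was checked on simulated data. All 38 genes are named, and from each pathway list up to 4 genes of at least 50 CPM with the largest LPS to PBS ratio in alveolar-macrophage-like cells, plus 1 for LPS + Reg3g to LPS. Genes and lists were chosen with earlier results of these data known. Promoter windows came from RefSeq (GRCm38.p6); no window was matched for Ctsb, Ctsh, Atp6v0d2, Atp6v1b2, Map1lc3a, Becn1 and Atg16l1.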

Additional observations from a re-analysis of the deposited data

Results flagged for a closer look

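For 12 ratios, alveolar-macrophage-like and monocyte-like cells of the same libraries lay on opposite sides of 0, each with a counting interval that excluded 0; the difference between the classes was not tested, since each group is 1 library. For LPS against PBS, the log2 ratio in alveolar-macrophage-like cells less that in monocyte-like cells was -1.93 for Ctsd, -1.40 for Ctsc, 1.03 for Cd68, -0.85 for Atp6v0d1, 0.59 for Lamp1, -0.44 for Map1lc3b, -0.38 for Gabarapl2, -0.34 for Atg5 and 0.29 for Ctsa. For LPS + Reg3g against LPS it was 0.35 for Ctsd, 0.33 for Lgmn and -0.21 for Ctsb. Ctsd in monocyte-like cells of the PBS library was at the level of lymphoid-like cells, and the part of free RNA in its monocyte-like ratios was not tested. Of the first 9, Atp6v0d1, Map1lc3b, Gabarapl2 and Atg5 had the same sign in both classes under median-of-ratios scaling. How many of all genes lay on opposite sides in the same way was not counted.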

How the results depend on the processing

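No paired analysis was possible because each group is 1 library. Over up to 16 alternatives, the count of genes at least 2-fold higher with LPS in alveolar-macrophage-like cells ran from 3 to 6 (4 as reported), and no gene passed 2-fold for LPS + Reg3g against LPS in either class. The 3 lower genes in alveolar-macrophage-like cells became 0 with median-of-ratios scaling, 0 with trimmed mean scaling and 0 over all kept cells of the library. The 5 higher genes in monocyte-like cells became 3 over all kept cells, a setting that takes in the other classes. Ctsd was reversed there at -0.88, and the part of the other classes in that value was not tested. Signs were the same under every alternative run for 28 of 38 genes in alveolar-macrophage-like and 22 in monocyte-like cells (LPS against PBS), and for 20 and 16 (LPS + Reg3g against LPS). The stricter cell filter gave no value for monocyte-like cells against PBS. Under it, fewer than 50 cells of the PBS library were named monocyte-like, beside 2247 as reported. Leaving out the cycling cluster, mixing clusters as in the LPS library and thinning to 1000 UMIs were chosen after seeing the data.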
